A study of Arabidopsis thaliana with 12 samples.

Results

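The genes described here are encoded outside the nucleus, in the chloroplast and the mitochondrion of Arabidopsis thaliana. They are all rows of the deposited expression table whose locus identifier begins with ATCG (chloroplast) or ATMG (mitochondrion), 88 and 122 genes, together 210 of the 27655 genes in the table. The samples were whole seedlings of the wild type Columbia, raised for 7 days at 21°C under 8 h of light and 16 h of dark. At ZT1 (zeitgeber time, hours after lights on) they were moved to 27°C or stayed at 21°C. Each was done with or without mannitol, a sugar alcohol used as a drought-like osmotic treatment. The seedlings were harvested at ZT13, 12 h after ZT1, which falls in the dark part of that light cycle. The 4 groups (21°C, 21°C with mannitol, 27°C, 27°C with mannitol) had 3 libraries each. All 4 groups share the genotype, age and day length, and the labels state no mannitol dose. The labels number the replicates without saying whether they were separate cultures, so the p-values measure the spread between these samples, which may be technical.

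The chloroplast genome carries genes for core subunits of the photosystems, the cytochrome b6f complex, the ATP synthase, the NDH complex (a chloroplast NADH dehydrogenase-like complex), the large subunit of Rubisco, and part of the chloroplast's own ribosome and RNA polymerase. Most chloroplast genes are read by a plastid-encoded RNA polymerase built from the products of rpoA, rpoB, rpoC1 and rpoC2 and steered by nuclear sigma factors, while a nuclear-encoded, phage-type polymerase also reads some of them, among them rpoB, accD and clpP. The plant mitochondrial genome carries subunits of the respiratory complexes and the ATP synthase, factors of cytochrome c maturation, some ribosomal proteins and many open reading frames without a known role. Neighbouring genes of both organelles are often transcribed together, and in both organelles a poly(A) tail marks an RNA for decay, unlike in the cytosol.

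The deposited unit is TPM, in which the reads of a gene are divided by its length and scaled so that a library sums to 1000000. Whole reads could be recovered from the steps of the TPM values, and they came to between 13013679 and 14262975 per library. Of these, 3842 to 8395 reads per library fell on chloroplast genes and 563 to 1351 on mitochondrial genes, so the depth behind single members is low. The markers of the labelled tissue were present: 9 shoot markers (nuclear genes of green tissue) summed to between 31005 and 44838 TPM and 13 root markers to between 2465 and 5038 TPM. In bulk seedlings, fewer cells of a type and less RNA per cell cannot be told apart.

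Locus identifiers of organelle genes carry no names in the files or in the reference tables. Names were therefore given by exact length: the gene length recovered from the TPM steps was within 0.05 of a whole number of bases for each of the 149 members with a recovered length, and a name was given where exactly 1 gene of the same organelle in the TAIR10.1 annotation had that coding length or gene span and the member at least 10 reads. This named 61 chloroplast and 12 mitochondrial genes, 2 of them by elimination. Along the chloroplast genome, all 58 consecutive pairs of the 59 named single-copy genes came in the order of their identifiers; for the mitochondrion only 4 of 11 pairs did, so the mitochondrial names rest on length alone. Identifiers with several candidates are printed with them. ATCG00020 and ATCG00270 are psbA and psbD, in an order that length alone cannot settle. psbC (ATCG00280) overlaps psbD in the annotation, and the named chloroplast genes follow the order of their identifiers. That order places psbD at ATCG00270 and psbA at ATCG00020. The remaining identifiers are printed without a name. For 12 of the named genes, among them clpP and rpl16, the length was the whole gene including its introns, so their values can hold unspliced RNA.

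Of the 88 chloroplast genes, 74 reached 1 TPM in at least 3 libraries and were tested, 10 were detected below that level, and 4 had no read in any library. Of the 122 mitochondrial genes, 36 were tested, 39 were detected below the level, and 47 had no read, which in 162607635 recovered reads allows up to 0.0184 per 1000000 reads for each, counting error only. The lowest mean among tested members was 0.374 TPM (ATMG00010) and the highest among those not tested was 0.655 TPM (ATMG00580). Of the 36 mitochondrial genes, 10 passed this level only through libraries at 27°C, as did 1 chloroplast gene. Such genes had to be higher at 27°C, so the counts of tested members are given below as a description, beside sums over all members and counts over members chosen by their mean over all libraries.

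Reads on near-identical copies were unevenly assigned. The chloroplast gene rpl2 lies in the inverted repeat; 1 copy, ATCG01310, held 868 reads and the other, ATCG00830, held 10. The mitochondrial genes atp8, ccmFN1, ccmFN2 and rps12 have between 91.7% and 100% of their 50-base windows also in nuclear DNA, and had 10 to 26 reads in all 12 libraries together. The 6 named mitochondrial genes with under 50% repeated windows had 100 to 308 reads. Values of repeated genes are therefore uncertain. Windows were compared for named genes only. Of the 36 tested mitochondrial genes, 9 had a name. The others, the 5 most abundant members among them, were not checked for copies elsewhere.

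Summed over the whole genome, the TPM of mitochondrial transcripts stood about 2 times higher at 27°C than at 21°C, with and without mannitol. The chloroplast sum showed no such shift. Neither the labels nor the processing notes state an mRNA enrichment. The sums therefore describe the organelle RNA captured in these libraries, an unknown share of that in the seedlings. The mitochondrial sum was 80.7, 106 and 172 TPM at 21°C and 134, 131 and 110 TPM at 21°C with mannitol. It was 240.1, 250.1 and 204 TPM at 27°C and 287, 323 and 268 TPM at 27°C with mannitol. The lowest library at 27°C lay above the highest at 21°C in both mannitol conditions. The mean log2 difference for 27°C against 21°C was 1.12, a fold of 2.18, with an adjusted p of 0.02 (two-sided exact permutation test within mannitol levels, 400 arrangements, adjusted over 4 tests). Without mannitol the log2 difference was 1.02 and with mannitol 1.23; in each, p = 0.1, the smallest p that an exact test of 3 against 3 libraries can give. In recovered reads scaled by library, not divided by gene length, the temperature effect was 0.75 (log2). The summed root markers were also higher at 27°C without overlap, from between 2465 and 2766 TPM to between 3097 and 3329 TPM without mannitol and from between 3060 and 3214 TPM to between 4639 and 5038 TPM with it. Of the 11 tested root markers, 3 rose and 1 fell with warmth and 1 rose and 3 fell with warmth under mannitol, against 28.2% and 16.6%, and 37.5% and 16.5%, of all tested genes. Their part in the mitochondrial sum was not tested.

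The chloroplast sum was 1179, 1098 and 1760 TPM at 21°C and 1101, 1123 and 964 TPM at 21°C with mannitol. It was 1462, 1289 and 1211 TPM at 27°C and 1279, 1341 and 1173 TPM at 27°C with mannitol. The libraries at 27°C and 21°C overlapped without mannitol and did not overlap with it. The temperature effect was a log2 difference of 0.13 (adjusted exact permutation p = 0.325). It became -0.01 when libraries were rescaled by median-of-ratios. That scaling rests on nuclear genes with at least 1 TPM in every library and takes out their shared shift. Over all tested genes, median log2 differences were 0.09 for warmth and 0.16 for warmth under mannitol. They were 0.08 for mannitol at 21°C and 0.17 for mannitol at 27°C. Without replicate 3 of 21°C, the library with the highest sum, the temperature effect was 0.23 (adjusted exact permutation p = 0.0133).

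Over both temperatures together, the test of mannitol against none passed for neither sum in TPM. For the chloroplast the log2 difference of mannitol against none was -0.19 (adjusted exact permutation p = 0.26), and it was -0.33 with an adjusted p of 0.01 after median-of-ratios rescaling. For the mitochondrion it was 0.24 (adjusted exact permutation p = 0.26), and 0.38 with an adjusted p of 0.0133 without replicate 3 of 21°C. At 27°C alone, all 3 mitochondrial sums with mannitol lay above all 3 without, a fold of 1.27 (exact permutation p = 0.1, the smallest possible), and at 21°C the libraries overlapped. The summed shoot markers went from between 43041 and 44838 TPM at 21°C to between 35229 and 37820 TPM with mannitol. At 27°C they went from between 42647 and 42931 TPM to between 31005 and 31915 TPM with mannitol. Most of this sum is 1 gene, RBCS1A, with a mean of 31568 TPM at 21°C and 25536 TPM with mannitol. Its mean was 28785 TPM at 27°C and 19540.5 TPM at 27°C with mannitol. GLK2, a shoot marker at a low level, rose with mannitol at 21°C and did not pass at 27°C. Of the 9 shoot markers, 1 rose and 3 fell with mannitol at 21°C, and 5 fell at 27°C, where 15.4% of all tested genes rose and 4.61% fell at 21°C and 27.7% and 6.8% at 27°C. Of the root markers, 4 of the 11 tested rose and none fell with mannitol at 21°C, and 3 rose and 1 fell at 27°C, against the same shares. Most of the root sum is 1 gene, PYK10, a glucosidase of root and hypocotyl, with a mean of 2364 TPM at 21°C, 2759 TPM with mannitol, 2807 TPM at 27°C and 4633 TPM at 27°C with mannitol. IRT1, the root iron transporter, fell from a mean of 240.3 TPM at 27°C to 63.6 TPM with mannitol. None of these markers was at 0 in all libraries, and their part in the organelle sums was not tested.

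**Figure D1:**
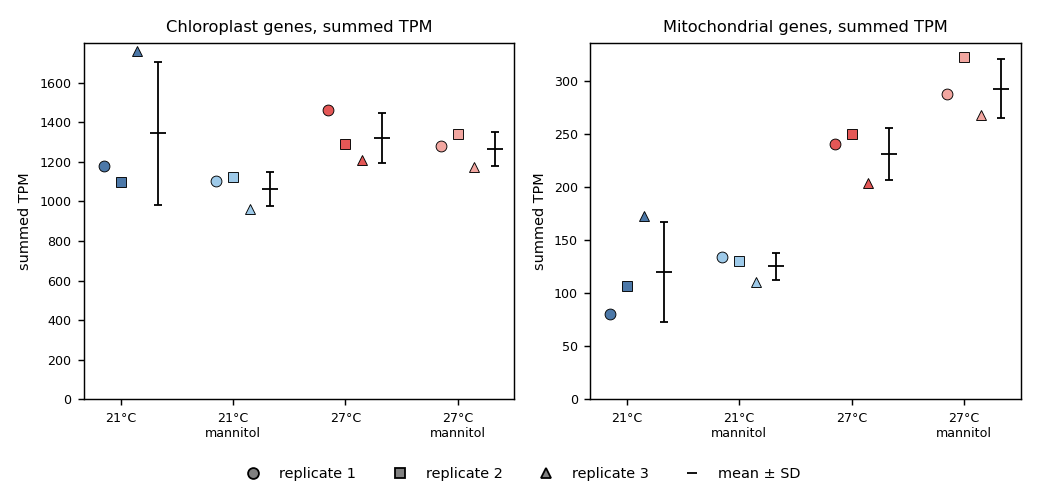
Summed TPM of all 88 chloroplast genes (left) and all 122 mitochondrial genes (right) in each of the 12 libraries, by group; symbols mark the replicate number, and the bar beside them is the mean with its SD (n = 3). Mitochondrial sums at 27°C lie between 204 and 323 TPM, above every 21°C library, while 1 chloroplast library at 21°C reaches 1760 TPM.

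Replicate 3 of 21°C stood apart from the other libraries of its group. Of the 74 tested chloroplast genes, 39 were highest there among the 3 libraries and 10 lowest, and 15 were above 2 times both other libraries. ATCG00020 (psbA by identifier order, a reaction centre protein of photosystem II) had 48.1, 82.8 and 299.8 TPM at 21°C, where the 11 other libraries lay between 48.1 and 83.5 TPM. rbcL (ATCG00490), the large subunit of Rubisco, had 31.8, 31.8 and 136 TPM at 21°C, against 29.1 to 73.0 TPM in the 11 others. Neither passed the test in any contrast. Without both, the chloroplast temperature effect was 0.16 and the mannitol effect -0.12 (log2).

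Single genes were tested with limma on log2(TPM + 1) over all 20005 genes of the table that reached 1 TPM in at least 3 libraries. For members at low levels the added 1 shrinks the log2 difference below that of the levels themselves. Genes "passed", "rose" or "fell" where the Benjamini-Hochberg adjusted p over all tested genes was below 0.05, and each log2 difference is given with its standard error (SE).

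At 27°C without mannitol, 20 of the 36 tested mitochondrial genes rose and 1 fell, where 28.2% of all tested genes rose and 16.6% fell (44.8% together). Libraries did not overlap for 21 of the 36 that were higher and 1 that was lower, against 30.8% and 18.8% of all tested genes. Their median log2 difference was 0.97, against 0.09 over all tested genes. Among the 20 members with a mean of at least 2 TPM over the 12 libraries, 15 rose and 1 fell. With mannitol, 23 of 36 rose and none fell (0 in limma and in voom, with 27 of the 36 in either direction at an unadjusted p below 0.05), where 37.5% of all tested genes rose and 16.5% fell (54% together). Libraries did not overlap for 22 that were higher and none that was lower, against 44.7% and 20.9% of all tested genes. The median was 0.97, against 0.16 over all tested genes, and 17 of the 20 members with a mean of at least 2 TPM rose. The libraries behind these 2 contrasts are different ones. There were 17 genes that rose in both, which is 81.0% of the members passing without mannitol and 73.9% of those passing with it; over all tested genes the same shares were 76.1% and 63.1%.

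When each member was divided by the sum of its own genome instead, 8 mitochondrial genes rose and 3 fell at 27°C, and 7 rose and 4 fell at 27°C with mannitol. The genes that also passed as a share of the sum are named as such below.

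Subunits of the respiratory chain were among the genes that rose. cox1 (ATMG01360), the catalytic subunit of cytochrome c oxidase, had 1.04, 0.318 and 2.08 TPM at 21°C and 0.653, 0.834 and 0.439 TPM with mannitol. At 27°C it had 3.01, 3.67 and 3.76 TPM, and 4.79, 6.21 and 6.45 TPM with mannitol. Every 27°C library lay above every 21°C library. The log2 difference was 1.14 ± 0.25 SE without mannitol (adjusted p = 0.00158) and 2.05 ± 0.25 SE with it (adjusted p = 8.59e-06), the latter also as a share of the sum.

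The 4 tested genes matched to complex I (NADH dehydrogenase) by length, nad9, nad4L, nad1 and the nad5 fragment ATMG00665, all rose in both contrasts. nad4L (ATMG00650) had 1.64, 1.66 and 3.27 TPM at 21°C and 7.00, 4.39 and 5.79 TPM at 27°C, without overlap. It had 1.14, 3.27 and 1.72 TPM at 21°C with mannitol and 11.9, 7.98 and 6.75 TPM at 27°C with mannitol. Its log2 difference was 1.10 ± 0.27 SE (adjusted p = 0.00393) and, with mannitol, 1.73 ± 0.27 SE (adjusted p = 9.31e-05). ATMG00665 gave the largest fitted difference, but it is 22 bases long and rests on 13 reads in all; it was at 0 in all libraries at 21°C, 0, 7.51 and 0 TPM with mannitol, and between 7.83 and 23.9 TPM at 27°C.

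After ATMG00665, ccmB (ATMG00110), part of the cytochrome c maturation machinery, had the largest log2 differences among the named mitochondrial genes. It had 0.266, 0.540 and 0 TPM at 21°C and 2.22, 0.798 and 0.840 TPM at 21°C with mannitol. It had 8.25, 4.81 and 4.80 TPM at 27°C and 11.4, 7.78 and 9.05 TPM at 27°C with mannitol. The 4 groups did not overlap except for the pair at 27°C. The log2 difference for warmth was 2.44 ± 0.26 SE (adjusted p = 3.09e-06) and, with mannitol, 2.23 ± 0.26 SE (adjusted p = 5.75e-06), both also as a share of the mitochondrial sum.

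atp4 (ATMG00640), subunit b of the mitochondrial ATP synthase, had 0.857, 0.869 and 0.570 TPM at 21°C against 7.94, 3.73 and 2.12 TPM at 27°C. With mannitol it had 1.79, 1.43 and 2.1 TPM at 21°C and 4.46, 4.77 and 4.41 TPM at 27°C. The 27°C libraries were higher in both mannitol conditions, with log2 differences of 1.53 ± 0.28 SE (adjusted p = 0.000379) and 1.01 ± 0.28 SE (adjusted p = 0.00652). ATMG01090, whose protein match in the annotation is subunit 9 of that enzyme, rose in both contrasts too. The gene for atp8, whose windows all recur in nuclear DNA, passed in neither.

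The 5 most abundant mitochondrial members are identifiers without a name. ATMG00030, the most abundant, had 30.1, 58.5 and 109 TPM at 21°C and 65, 51.0 and 44.5 TPM with mannitol. It had 75.8, 92.8 and 53.6 TPM at 27°C and 94.1, 106 and 81.0 TPM with mannitol. It overlapped between the temperatures without mannitol. With mannitol it rose by a log2 difference of 0.81 ± 0.32 SE (adjusted p = 0.0459), a call that ended under 7 of the 10 other settings and turned to -0.40 as a share of the mitochondrial sum. Leaving it out raised the log2 difference of the mitochondrial sum for warmth from 1.12 to 1.51.

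ATMG00160 had 5.99, 8.20 and 7.91 TPM at 21°C and 13, 18.6 and 17.6 TPM at 27°C. It had 7.79, 8.93 and 8.99 TPM at 21°C with mannitol and 20.7, 19.3 and 21.2 TPM at 27°C with mannitol. The 27°C libraries did not overlap with those at 21°C, and the log2 differences were 1.05 ± 0.14 SE (adjusted p = 2.45e-05) and 1.16 ± 0.14 SE (adjusted p = 7.59e-06). ATMG00660 rose in both contrasts as well, by 1.24 without mannitol and 0.98 with it (log2).

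ATMG00690 had 0.915, 1.86 and 2.51 TPM at 21°C and 7.82, 4.82 and 3.15 TPM at 27°C. It had 0.954, 1.14 and 0.962 TPM at 21°C with mannitol and 6.91, 7.16 and 6.83 TPM at 27°C with mannitol. The temperatures did not overlap, and the log2 difference was 1.16 ± 0.25 SE (adjusted p = 0.00148) and 1.98 ± 0.25 SE with mannitol (adjusted p = 1.25e-05).

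ATMG01370 was the member for which the warm response differed with mannitol. It had 3.45, 1.5 and 3.44 TPM at 21°C and 6.16, 8.85 and 7.76 TPM at 21°C with mannitol. It had 21.0, 20.3 and 17.2 TPM at 27°C and 18.0, 24.7 and 22.3 TPM at 27°C with mannitol. Mannitol raised it at 21°C without overlap (log2 difference 1.22 ± 0.20 SE, adjusted p = 0.000508), and the libraries of the pair at 27°C overlapped. Warmth raised it by 2.48 ± 0.20 SE without mannitol (adjusted p = 2.61e-07) and by 1.40 ± 0.20 SE with it (adjusted p = 4.48e-05). The interaction, the second minus the first, was -1.08 ± 0.28 SE (adjusted p = 0.0411), and that call ended under 4 of the 10 other settings and in 9 of the 12 fits that left out 1 library. Over all tested genes, 2.69% had a negative interaction and 2.43% a positive one; 5.12% passed together. No chloroplast gene passed it in limma or in voom, with 10 of 74 at an unadjusted p below 0.05; 4 passed without replicate 1 of 27°C and 1 without replicate 1 or 2 of 21°C with mannitol.

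ATMG00090 was the 1 mitochondrial gene that fell with warmth. It had 11.3, 10.4 and 10.7 TPM at 21°C and 10.2, 10.6 and 9.51 TPM at 21°C with mannitol. It had 6.79, 8.38 and 6.15 TPM at 27°C and 10.5, 9.18 and 11 TPM at 27°C with mannitol. The 3 libraries at 27°C without mannitol lay below all others. It fell with warmth by 0.55 ± 0.12 SE (log2, adjusted p = 0.00147), and at 27°C it was higher with mannitol by 0.48 ± 0.12 SE (adjusted p = 0.00637), a call that ended after median-of-ratios rescaling and as a share of the mitochondrial sum.

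The open reading frame ATMG00630 had no read in the 3 libraries at 21°C and 0, 0.496 and 1.04 TPM at 21°C with mannitol. It had 6.90, 2.99 and 4.74 TPM at 27°C and 1.04, 1.56 and 4.09 TPM at 27°C with mannitol. It rests on 44 reads in all, and its fitted rise at 27°C (2.50, adjusted p = 3.1e-05) depends on the 1 that was added to each TPM. Its fall with mannitol at 27°C (-0.92, adjusted p = 0.0455) ended under 5 of the 9 other settings that could be run for it, and those libraries overlapped.

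**Figure D2:**
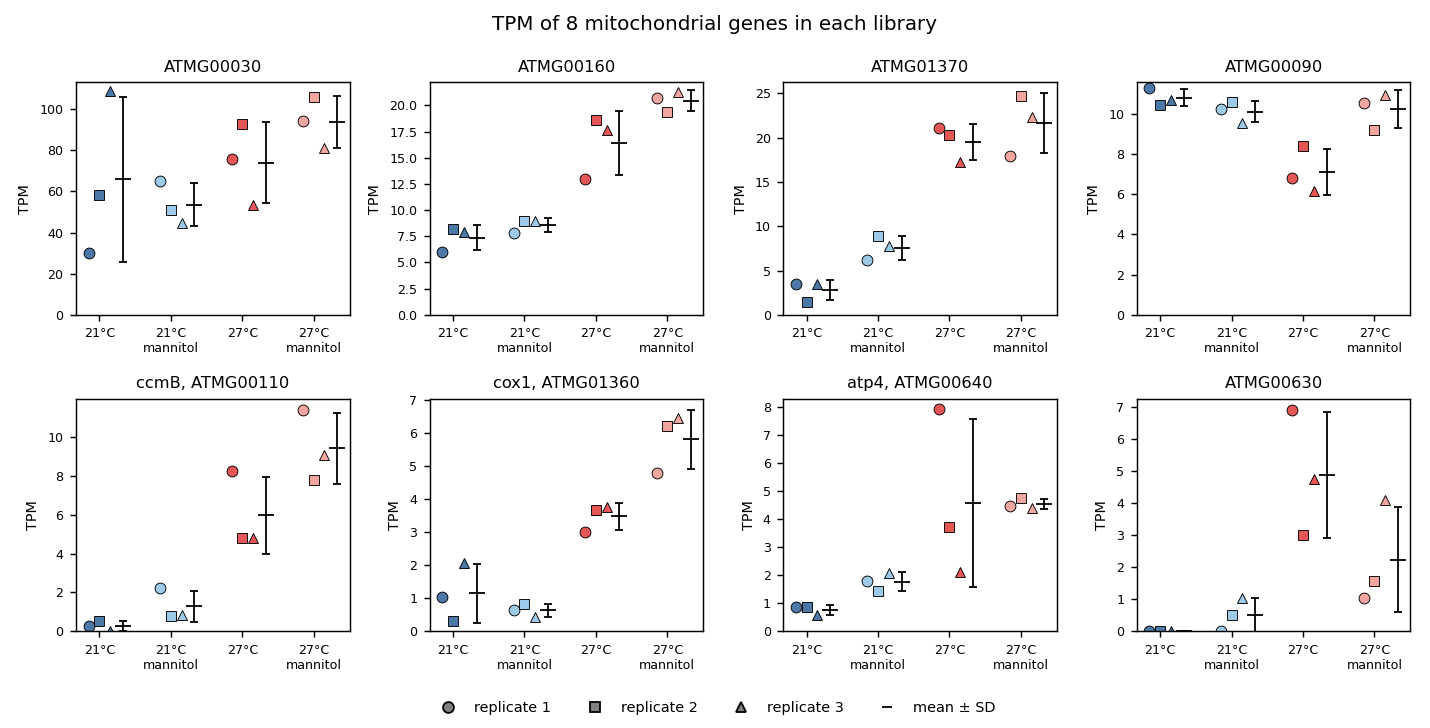
TPM of 8 mitochondrial genes in each library, by group, with the mean and SD of 3 libraries. ATMG00160, ATMG01370, ccmB and cox1 are higher in every 27°C library than in every 21°C library of the same mannitol condition; ATMG00090 is lowest at 27°C without mannitol.

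Mannitol moved few mitochondrial genes. At 21°C, ATMG01370 and ccmB rose and none fell (0 of 36 in limma and in voom, with 6 of 36 in either direction at an unadjusted p below 0.05), where 15.4% of all tested genes rose and 4.61% fell (20% together). The rise of ccmB was 0.82 ± 0.26 SE (log2, adjusted p = 0.0357) and ended under 3 of the 10 other settings and in the fits without replicate 1 or 3 of 21°C or replicate 1 of 21°C with mannitol. At 27°C, ATMG00090 rose and ATMG00630 fell, where 27.7% of all tested genes rose and 6.8% fell (34.5% together). The median of the 36 was 0.24, against 0.17 over all tested genes. The 2 calls at 21°C became 1 without replicate 1 of either 21°C group and 4 without replicate 3 of 21°C or replicate 1 of 27°C. The 2 calls at 27°C became 1 without replicate 1 of 21°C or replicate 2 of 27°C with mannitol and 4 without replicate 2 of 27°C.

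Chloroplast genes went in both directions with warmth. At 27°C without mannitol, 8 of the 74 tested rose and 5 fell, where 28.2% and 16.6% of all tested genes did; libraries did not overlap for 9 higher and 7 lower, against 30.8% and 18.8% of all tested genes. The median log2 difference was 0.09, as over all tested genes. With mannitol, 21 rose and 5 fell, where 37.5% and 16.5% of all tested genes did; libraries did not overlap for 25 higher and 8 lower, against 44.7% and 20.9% of all tested genes. The median was 0.28, against 0.16 over all tested genes. After median-of-ratios rescaling the counts were 6 rising and 9 falling without mannitol and 16 rising and 8 falling with it. The 2 contrasts rest on different libraries, and 7 genes passed in the same direction in both: rpl20, clpP, rpl16, atpA and atpI rose, and atpB and rpl32 fell. These are 53.8% of the members passing without mannitol and 26.9% of those passing with it, where the shares over all tested genes were 76.1% and 63.1%.

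clpP (ATCG00670), the proteolytic subunit of the chloroplast Clp protease, had 8.21, 5.95 and 6.60 TPM at 21°C and 15.8, 18.9 and 16.3 TPM at 27°C. With mannitol it had 5.33, 6.95 and 5.90 TPM at 21°C and 19.1, 17.0 and 16.6 TPM at 27°C. The temperatures did not overlap, and the lowest library at 27°C stood well above the highest at 21°C. The log2 difference was 1.19 ± 0.13 SE (adjusted p = 4.15e-06) and 1.40 ± 0.13 SE with mannitol (adjusted p = 7.48e-07).

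rpl20 (ATCG00660), a protein of the large ribosomal subunit whose gene lies near clpP, had 5.14, 9 and 6.06 TPM at 21°C and 26, 11.7 and 16.8 TPM at 27°C. With mannitol it had 5.36, 3.27 and 4.91 TPM at 21°C and 20, 26.3 and 17.8 TPM at 27°C. Again no 27°C library reached down to the 21°C range. The log2 difference was 1.27 ± 0.25 SE (adjusted p = 0.000766) and 2.02 ± 0.25 SE with mannitol (adjusted p = 1.11e-05). clpP and rpl20 passed under every one of the other settings and library subsets that were run.

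The chloroplast ATP synthase split by gene. atpI and atpA, in the gene cluster that also holds atpF, rose in both contrasts, and atpF rose with mannitol. atpA (ATCG00120), the alpha subunit, had 19.5, 14.3 and 23.5 TPM at 21°C and 34.8, 29.8 and 23.6 TPM at 27°C. With mannitol it had 17.8, 18.6 and 16.7 TPM at 21°C and 33.9, 27.4 and 29.4 TPM at 27°C. Its groups did not overlap, though replicate 3 at 27°C (23.6 TPM) was just above replicate 3 at 21°C (23.5 TPM); the log2 differences were 0.60 ± 0.16 SE (adjusted p = 0.00582) and 0.74 ± 0.16 SE with mannitol (adjusted p = 0.00122).

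atpI (ATCG00150), a subunit of the membrane part of the enzyme, had 12.8, 8.72 and 18.0 TPM at 21°C and 21.2, 21.0 and 21.7 TPM at 27°C. With mannitol it had 11.5, 9.25 and 12.3 TPM at 21°C and 17.7, 20.5 and 17.0 TPM at 27°C. It too was higher in all 27°C libraries of each mannitol condition, by 0.71 ± 0.18 SE (log2, adjusted p = 0.00508) and 0.70 ± 0.18 SE with mannitol (adjusted p = 0.00474).

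atpB (ATCG00480), the beta subunit, went the other way. It had 69.4, 73.8 and 63.6 TPM at 21°C and 54.1, 35.7 and 44.5 TPM at 27°C. With mannitol it had 59.7, 61.6 and 57.0 TPM at 21°C and 42.9, 38.2 and 36.2 TPM at 27°C. All 27°C libraries lay below all 21°C libraries. It fell by 0.63 ± 0.12 SE (log2, adjusted p = 0.0005) and, with mannitol, by 0.59 ± 0.12 SE (adjusted p = 0.00065). atpE, which overlaps the end of atpB in the annotation, had a mean of 32.6 ± 4.2 TPM (SD, n = 3) at 21°C and 22.2 ± 2.46 TPM at 27°C without overlap and did not pass. Where genes overlap, the reads of the shared bases cannot be assigned to 1 of them.

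The polymerase genes rpoB, rpoC1 and rpoC2 lie in a row and had negative log2 differences in both contrasts, of which 1 of 6 passed, while rpoA, which lies elsewhere, had 0.11 and 0.47 and passed in neither. rpoB (ATCG00190), the beta subunit, had 21.3, 17.4 and 17.6 TPM at 21°C and 17.2, 11.7 and 14.5 TPM at 27°C. With mannitol it had 19.2, 20.5 and 17.5 TPM at 21°C and 8.83, 11.9 and 11.9 TPM at 27°C. The temperatures did not overlap in either condition; rpoB fell with warmth under mannitol by 0.77 ± 0.14 SE (log2, adjusted p = 0.000422).

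Of the 16 tested ribosomal protein genes with a name, 3 rose and 1 fell with warmth and 6 rose and 1 fell with warmth under mannitol, where 28.2% and 16.6%, and 37.5% and 16.5%, of all tested genes did. Besides rpl20, the genes rising under mannitol included rpl14, rpl16 and rps3, which are neighbours on the chloroplast genome. rpl16 (ATCG00790) had 17.3, 14.4 and 14.9 TPM at 21°C and 25.5, 22.4 and 21.4 TPM at 27°C. With mannitol it had 11.4, 12.4 and 10.6 TPM at 21°C and 21.7, 20.8 and 20.4 TPM at 27°C. Warmth raised it without overlap, by 0.54 ± 0.10 SE (log2, adjusted p = 0.000418) and by 0.82 ± 0.10 SE with mannitol (adjusted p = 9.29e-06). The third gene rising without mannitol, rpl22, overlapped between the groups (8.70 ± 0.813 TPM at 21°C and 16.2 ± 6.83 TPM at 27°C, SD, n = 3), and its call ended under 4 of the 10 other settings. Among the identifiers without a name, ATCG01050 had 1.85, 0.992 and 3.69 TPM at 21°C and 4.07, 4.59 and 4.15 TPM at 27°C, without overlap, a rise of 0.82 ± 0.27 SE (log2, adjusted p = 0.0209).

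rpl32 (ATCG01020), also of the large ribosomal subunit and among the 5 most abundant chloroplast genes, fell. It had 106, 112 and 94.4 TPM at 21°C and 61.1, 89.8 and 76.1 TPM at 27°C. With mannitol it had 105, 151 and 91.8 TPM at 21°C and 78, 78.2 and 53.6 TPM at 27°C. The temperatures did not overlap. The fall was 0.47 ± 0.18 SE (log2, adjusted p = 0.0448) without mannitol, a call that ended under 4 of the 10 other settings, and 0.71 ± 0.18 SE with it (adjusted p = 0.00384).

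**Figure D3:**
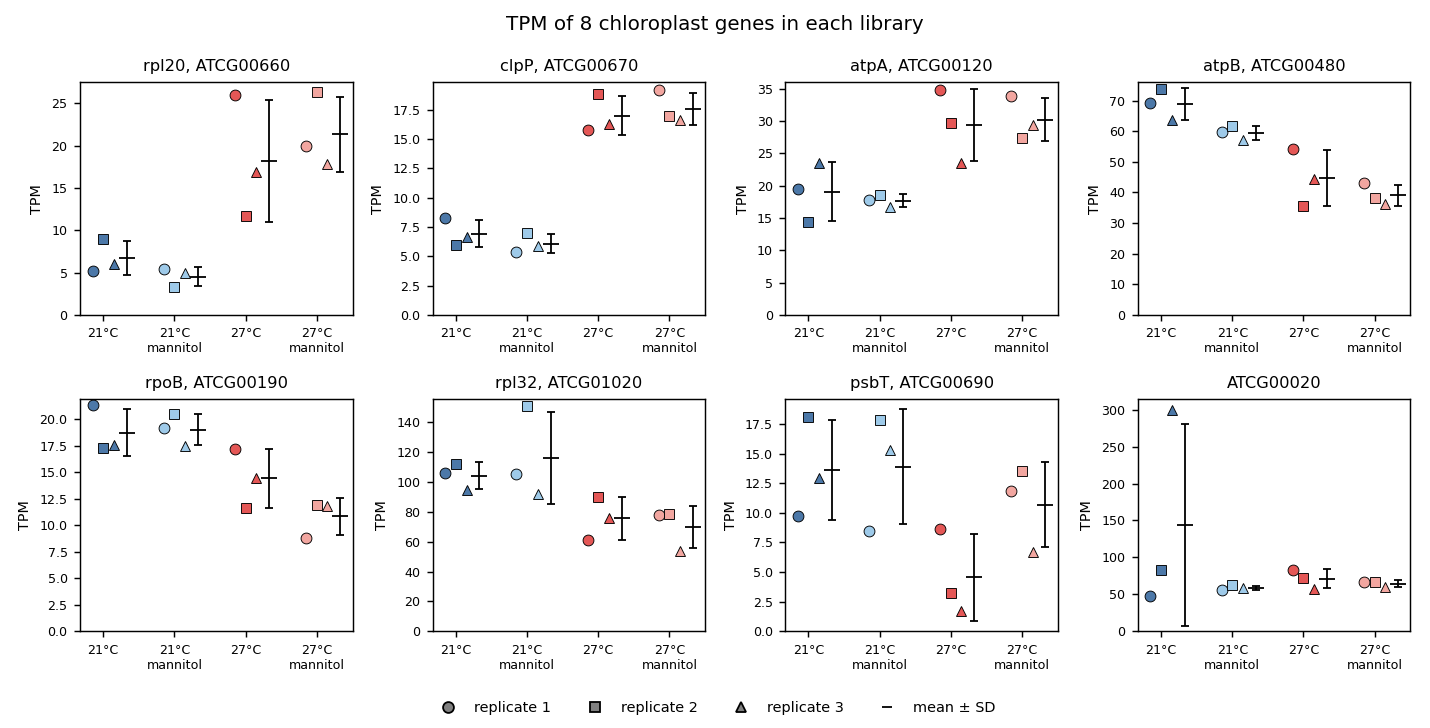
TPM of 8 chloroplast genes in each library, by group, with the mean and SD of 3 libraries. rpl20, clpP and atpA are higher in every 27°C library than in every 21°C library of the same mannitol condition, atpB, rpoB and rpl32 lower; ATCG00020 reaches 299.8 TPM in replicate 3 of 21°C and stays at or below 83.5 TPM elsewhere.

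The genes named for the photosystems and cytochrome b6f that passed at 27°C without mannitol, psaJ, petA and psbT, fell. psaJ (ATCG00630), a small subunit of photosystem I, had 36.8, 42.2 and 34.2 TPM at 21°C and 13.1, 24.6 and 18.2 TPM at 27°C, a fall of 1.02 ± 0.21 SE (log2, adjusted p = 0.00115). petA (ATCG00540), cytochrome f, had 12.9, 14.1 and 16.1 TPM at 21°C and 8.08, 4.83 and 7.29 TPM at 27°C, a fall of 1.01 ± 0.16 SE (log2, adjusted p = 0.000125). Neither group overlapped. In the presence of mannitol neither gene passed: psaJ had 29.3 ± 8.14 TPM at 21°C and 22.5 ± 3.96 TPM at 27°C, and petA had 9.24 ± 1.22 and 7.44 ± 0.874 TPM (SD, n = 3). The difference between the warm responses did not pass for either gene.

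psbT (ATCG00690), a small subunit of photosystem II, had its lowest values at 27°C without mannitol. It had 9.73, 18.1 and 12.9 TPM at 21°C and 8.66, 3.26 and 1.72 TPM at 27°C, a fall of 1.56 ± 0.39 SE (log2, adjusted p = 0.0043). With mannitol it had 8.46, 17.8 and 15.3 TPM at 21°C and 11.8, 13.5 and 6.68 TPM at 27°C. Those libraries overlapped, and at 27°C mannitol raised it by 1.23 ± 0.39 SE (adjusted p = 0.0243), a call that ended after median-of-ratios rescaling, with voom and in 4 of the 12 fits that left out 1 library. It rests on 77 reads in 12 libraries, and its interaction did not pass.

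Among the 14 tested genes matched to photosystem II, psbT was the 1 that passed with warmth, and psbJ, psbM and psbE rose with warmth under mannitol. Of all tested genes, 44.8% passed with warmth and 37.5% rose with warmth under mannitol. psbM (ATCG00220) had 96.1, 57.5 and 69.1 TPM at 21°C and 90.9, 104 and 120.3 TPM at 27°C. With mannitol it had 42.7, 72.4 and 36.4 TPM at 21°C and 67.3, 105 and 82.8 TPM at 27°C. The groups overlapped in both conditions, and psbM passed with mannitol (log2 difference 0.78 ± 0.23 SE, adjusted p = 0.00982). That call ended as a share of the chloroplast sum, with voom, without replicate 3 of 21°C with mannitol and without replicate 2 of 27°C with mannitol. psbI (ATCG00080, means of 87.7 to 120 TPM over the 4 groups) and psbK (ATCG00070, 75.4 to 79.7 TPM), which are among the 5 most abundant as well, passed in no contrast.

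The 8 tested genes named for the NDH complex by length gave no call with warmth without mannitol, where 44.8% of all tested genes passed. ATCG01050, which rose in that contrast, has no name and is not counted among them. Its identifier lies between those of ndhF (ATCG01010) and ndhA (ATCG01100). With warmth under mannitol 2 of the 8 rose, where 37.5% of all tested genes rose. ndhA (ATCG01100) was the larger of these, with 1.44, 1.15 and 2.49 TPM at 21°C with mannitol and 5.18, 4.79 and 2.99 TPM at 27°C with mannitol. The libraries did not overlap (log2 difference 0.99 ± 0.25 SE, adjusted p = 0.00397). ycf4, a photosystem I assembly factor, and accD, a subunit of the acetyl-CoA carboxylase, rose in that contrast too, by 1.11 and 0.78 (log2), and cemA, a protein of the chloroplast envelope, fell by 0.67.

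Very short genes were among those with the largest rises with warmth under mannitol. ATCG00065 is 114 bases long, a length shared by petG, psaI, rpl36 and rps12. It had 12.1, 1.45 and 3.05 TPM at 21°C with mannitol and 19.7, 34.8 and 40.4 TPM at 27°C with mannitol. The groups did not overlap (log2 difference 2.63 ± 0.53 SE, adjusted p = 0.000829), and the gene rests on 129 reads in 12 libraries. ATCG00510, of the same length, is psaI of photosystem I by identifier order. It rose by 1.82 (log2) with 54 reads, and psbJ rose by 1.38 with 143 reads. ATCG00570, counted among the genes that fell, had 4 reads in all 12 libraries.

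**Figure D4:**
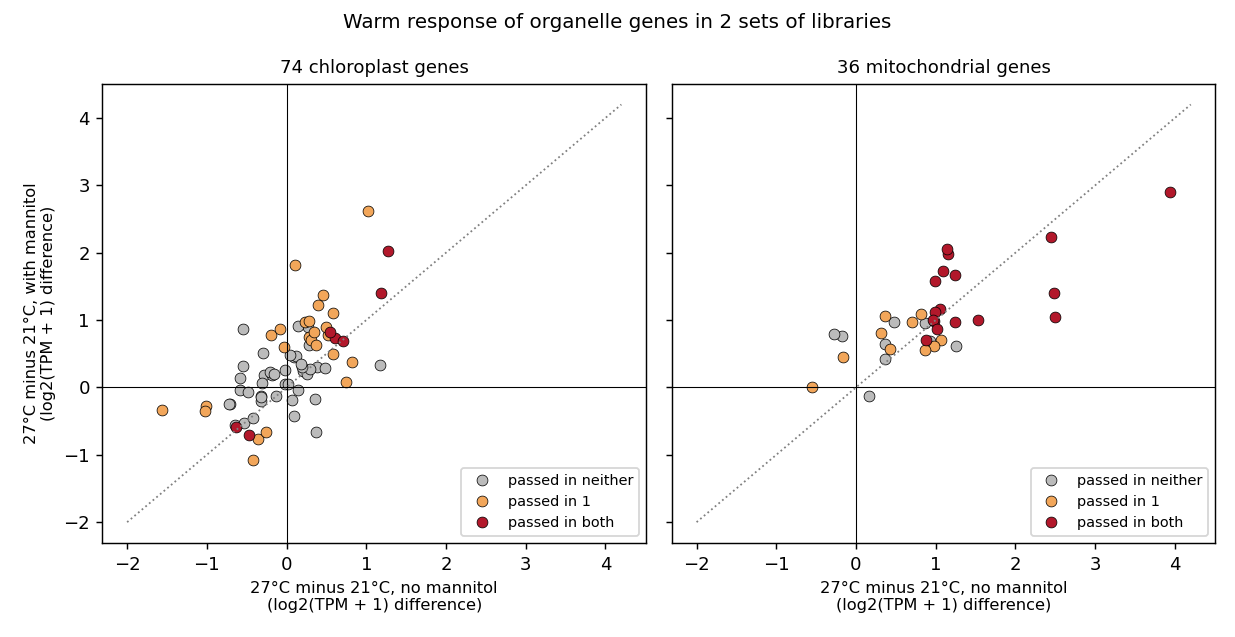
Difference of log2(TPM + 1) between 27°C and 21°C without mannitol (horizontal) and with mannitol (vertical), 1 point per tested gene; the dotted line marks equal differences. The 17 mitochondrial genes that passed in both lie in the upper right, while the 7 chloroplast genes that passed in both lie in the upper right (5) and lower left (2).

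Mannitol at 21°C lowered 6 chloroplast genes and raised none (0 of 74 in limma and in voom, with 14 of 74 in either direction at an unadjusted p below 0.05), where 4.61% of all tested genes fell and 15.4% rose. The median of the 74 was -0.30, against 0.08 over all tested genes, and 58 of them had a negative difference. Libraries did not overlap for 12 that were lower and none that was higher, against 11.2% and 28% of all tested genes. The 6 were petA, petD, rps3, rpl14, rpl16 and ATCG00270. rpl16 fell by 0.41 ± 0.10 SE (log2, adjusted p = 0.00917), from 14.4 to 17.3 TPM down to 10.6 to 12.4 TPM, and petA by 0.59 ± 0.16 SE (adjusted p = 0.017), from 12.9 to 16.1 TPM down to 8.42 to 10.6 TPM. The libraries did not overlap for either gene. petD, subunit IV of cytochrome b6f, had 7.21, 5.91 and 11.2 TPM without mannitol and 4.78, 5.40 and 4.37 TPM with it, again without overlap (log2 difference -0.60 ± 0.19 SE, adjusted p = 0.0413). ATCG00270, psbD by identifier order, had 12.6, 12 and 22 TPM without mannitol and 8.61, 9.96 and 8.02 TPM with it (log2 difference -0.70 ± 0.23 SE, adjusted p = 0.0399). Replicate 3 of 21°C was the highest library for petD and ATCG00270. The ribosomal protein genes rpl14 and rps3 fell by 0.48 and 0.62 (log2), and the libraries of rps3 overlapped. The count of 6 became 2 without replicate 3 of 21°C and 1 without replicate 3 of 21°C with mannitol, and none passed as a share of the chloroplast sum.

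At 27°C, mannitol raised 2 and lowered 2 of the 74, where 27.7% of all tested genes rose and 6.8% fell, and after median-of-ratios rescaling the counts were 1 and 6. Libraries did not overlap for 5 that were higher and 7 that were lower, against 36.9% and 9.21% of all tested genes. ATCG01060 is atpH or psaC by length, and psaC, of photosystem I, by identifier order. It had 4.31, 3.38 and 1.43 TPM at 27°C and 7.71, 9.82 and 9 TPM with mannitol, without overlap. The rise was 1.35 ± 0.35 SE (log2, adjusted p = 0.0088). rps14 (ATCG00330), of the small ribosomal subunit, had 21.6, 12.1 and 16.8 TPM at 27°C and 9.67, 9.12 and 9.56 TPM with mannitol, a fall of 0.73 ± 0.27 SE (log2, adjusted p = 0.0454). psbH (ATCG00710), of photosystem II, had 9.55, 8.98 and 4.74 TPM at 27°C and 4.66, 4.67 and 1.53 TPM with mannitol, and fell by 0.97 ± 0.36 SE (log2, adjusted p = 0.0498). The calls of rps14 and psbH ended in 9 and 6 of the 12 fits that left out 1 library. The 4 calls in all became 8 without replicate 3 of 21°C and 2 without replicate 2 or 3 of 21°C with mannitol.

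**Figure D5:**
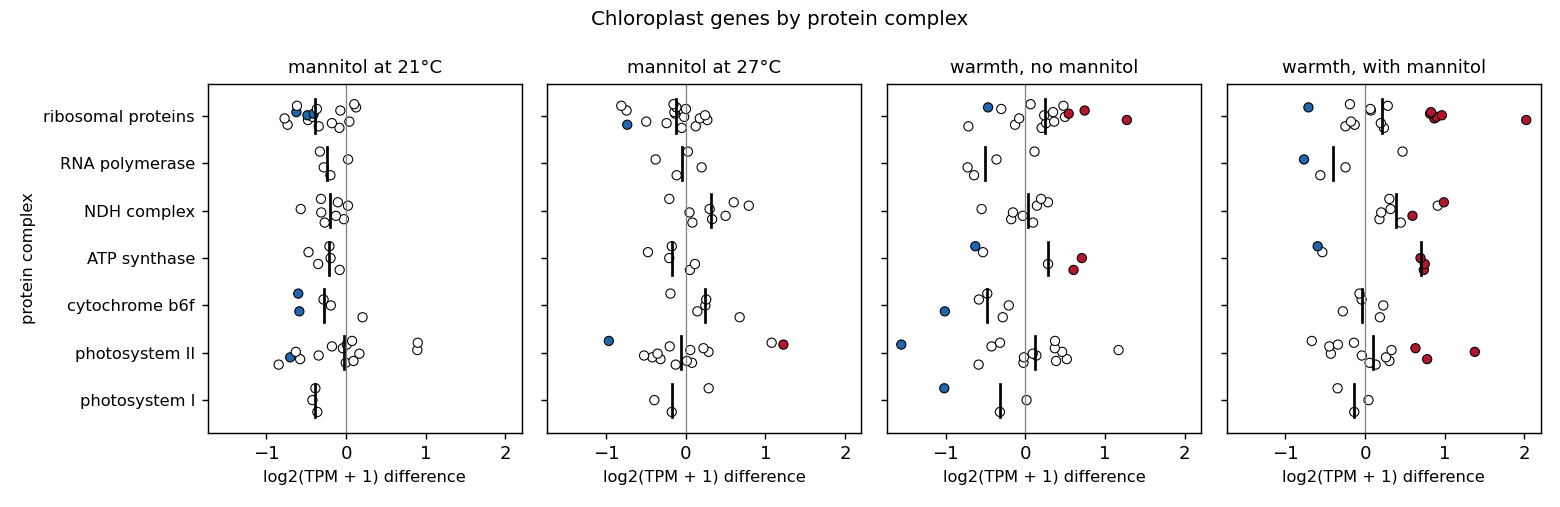
Difference of log2(TPM + 1) for tested chloroplast genes whose name or candidate names fall in 1 protein complex, in the 4 contrasts; filled red points rose, filled blue points fell, open points did not pass, and the vertical bar is the median of the complex. ATP synthase genes split into 2 directions with warmth, and the ribosomal protein genes that rose with warmth under mannitol lie between 0.82 and 2.02.

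The nucleus supplies the proteins that transcribe and process organelle RNA, and their own transcripts were read from the same fit. All 12 plastid polymerase-associated proteins, which form the large transcription complex around the plastid-encoded polymerase, fell at 27°C without mannitol, and 8 of 12 fell with it, where 16.6% and 16.5% of all tested genes fell; their medians were -0.50 and -0.25. PDE312 had 113 ± 4.54 TPM (SD, n = 3) at 21°C and 58.6 ± 6.11 TPM at 27°C, a fall of 0.95 ± 0.09 SE (log2, adjusted p = 9.83e-07). PTAC12 had 133 ± 3.07 and 75.2 ± 3.44 TPM, a fall of 0.82 ± 0.07 SE (adjusted p = 3.69e-07). Mannitol lowered 4 of the 12 at 21°C and 2 at 27°C, where 4.61% and 6.8% of all tested genes fell.

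Of the 9 sigma factors and phage-type polymerases, 3 rose and 4 fell at 27°C, and 4 rose and 2 fell at 27°C with mannitol, against 28.2% and 16.6%, and 37.5% and 16.5%, of all tested genes. SIGA and SIGC, sigma factors that guide the plastid-encoded polymerase, rose by 0.59 ± 0.10 SE and 0.63 ± 0.10 SE (log2, adjusted p = 0.000162 and 8.8e-05), and SIG2 fell by 0.45 ± 0.08 SE (adjusted p = 0.000482). None of the 9 passed with mannitol at 21°C, and at 27°C it raised SCA3, a phage-type polymerase of the chloroplast, and AT5G15700, another phage-type polymerase, by 0.35 and 0.36 (log2).

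Of the 11 genes for organelle RNA processing, stability and decay, none rose and 7 fell at 27°C, and 2 rose and 7 fell at 27°C with mannitol, against the same shares of all tested genes. CP29, an abundant RNA-binding protein of the chloroplast, fell from 2068 ± 76.3 to 1338 ± 118 TPM (SD, n = 3; log2 difference -0.63 ± 0.06 SE, adjusted p = 2.36e-06). AT5G14580, the mitochondrial polynucleotide phosphorylase, an enzyme of RNA decay, fell from 10.3 ± 1.02 to 5.31 ± 0.718 TPM (-0.85 ± 0.15 SE, adjusted p = 0.00026). With mannitol, 3 of the 11 fell at 21°C, and at 27°C 2 rose and 5 fell, where 4.61% of all tested genes fell at 21°C and 27.7% rose and 6.8% fell at 27°C. Of the 8 tested RNA editing factors of the MORF/RIP family, 4 fell at 27°C, and 5 fell and 1 rose at 27°C with mannitol. Of all tested genes, 16.6% fell at 27°C, and 16.5% fell and 37.5% rose at 27°C with mannitol. RIP1 fell from 232 ± 5.55 to 165 ± 9.38 TPM without mannitol (-0.49 ± 0.05 SE, adjusted p = 6.16e-06). Mannitol raised 1 of the 8 at 21°C and 2 at 27°C, where 15.4% and 27.7% of all tested genes rose.

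Of the 8 genes of the mitochondrial stress response, 4 rose at 27°C, 7 rose and 1 fell at 27°C with mannitol, and mannitol raised 5 at each temperature. Over all tested genes, 28.2% and 37.5% rose with warmth without and with mannitol, and 15.4% and 27.7% rose with mannitol at 21°C and 27°C. AT5G51440, a small heat shock protein of the mitochondrion, had 3.13 ± 0.175 TPM (SD, n = 3) at 21°C and 24.8 ± 2.68 TPM at 27°C (log2 difference 2.64 ± 0.13 SE, adjusted p = 3.78e-09). AOX1A, the alternative oxidase, had 15.2 ± 2.67 TPM at 21°C, 28.9 ± 1.69 with mannitol, 21.4 ± 2.56 at 27°C and 52.3 ± 4.11 at 27°C with mannitol. The mannitol effect on AOX1A was 0.89 ± 0.12 SE at 21°C and 1.25 ± 0.12 SE at 27°C (log2, adjusted p = 5.81e-05 and 1.52e-06).

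The nuclear loci AT2G07660 to AT2G07850, the range on chromosome 2 in which the copy of mitochondrial DNA lies, carried 34.7 to 61.7 TPM in sum over 71 genes, of which 25 had no read and 8 were tested. Most of that sum belongs to nuclear genes of their own within the range, MCM5, a DNA replication factor, with a mean of 27.1 TPM at 21°C, and ABCC13, a transporter, with 5.48 TPM. Of the 8, 4 rose and 1, MCM5, fell at 27°C, and 5 rose at 27°C with mannitol, where 28.2% and 16.6%, and 37.5% and 16.5%, of all tested genes did. The medians were 0.52 and 0.81. The mean sum of the 71 loci went from 38.6 TPM at 21°C to 41.8 TPM at 27°C, while MCM5 went from 27.1 to 19.6 TPM. With mannitol the sum went from 35.8 to 56.9 TPM and MCM5 from 21.7 to 22.2 TPM. With all 71 loci added, MCM5 and ABCC13 included, the log2 difference of the mitochondrial sum for warmth was 0.97. That value mixes these 2 genes with the other loci, whose own part was not separated.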

How the data were processed

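The authors deposited 1 table of TPM values for 12 libraries; per the submitters' processing notes, fastp 0.20.1, HISAT2 2.1.10, DESeq2 1.26.0 and TAIR10 were used, while neither these notes nor the labels name the counting tool, the strand setting or the mRNA enrichment. Whole reads were recovered from the TPM steps within 0.0001 of a whole number, which succeeded for 22928 of 22931 genes with values in 2 or more libraries and gave 13013679 to 14262975 reads per library. They served for depth, gene lengths and 2 alternatives. limma 3.58.1 (R 4.3.3) was run on log2(TPM + 1) for 20005 genes with at least 1 TPM in at least 3 libraries, with 4 group means, a mean-variance trend and Benjamini-Hochberg adjustment over all tested genes. Sums were compared by exact permutation. Read recovery and the limma fit were tested on simulated data. The rule for members named was, per contrast and genome, up to 5 passing in each direction with the largest differences and the 5 with the highest mean, and up to 3 genes per nuclear list; further members were named after their values were seen. Members and lists were chosen with earlier results of these data known. Alternatives were other pseudocounts, filters, scalings, voom, no trend, a replicate block and leaving out each library; sums in recovered reads, and sums without ATCG00020 and ATCG00490 or without ATMG00030 and ATMG00665, were added after seeing the data. No sequences are printed. Some members are not reported here by name.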

Additional observations from a re-analysis of the deposited data

Results flagged for a closer look

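ATMG01370 was the 1 member whose response differed between conditions by a test of the difference itself. Its interaction of warmth and mannitol was -1.08 on the log2(TPM + 1) scale (limma, adjusted p = 0.0411), with 2.79 ± 1.12 TPM (SD, n = 3) in the 21°C control, 7.59 ± 1.35 TPM under mannitol alone, 19.5 ± 2.02 TPM under warmth alone and 21.6 ± 3.41 TPM under both. Mannitol raised it at 21°C, and at 27°C it did not pass. The interaction no longer passed under 4 of the 10 other settings and in 9 of the 12 fits that left out 1 library. The identifier has no name in the sources used here. With 3 libraries per group, single samples were not tested for standing apart.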

How the results depend on the processing

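The mitochondrial temperature effect on the summed TPM kept its direction in all settings, from 0.997 to 1.27 (log2) when 1 library was left out and 0.75 in recovered reads scaled by library. Its adjusted p passed in all but the fit with the replicate block, where 1.12 had 0.125, since that design allows too few arrangements. The chloroplast temperature effect ranged from 0.061 to 0.23 when 1 library was left out and turned to -0.0061 after median-of-ratios rescaling and -0.064 in recovered reads scaled by library. The chloroplast mannitol effect ranged from -0.25 to -0.08, and passed at -0.33 after median-of-ratios rescaling and -0.34 in recovered reads. The mitochondrial mannitol effect ranged from 0.11 to 0.38, and passed at 0.38 without the most abundant gene, 0.37 without ATMG00030 and ATMG00665, and 0.091 as a mean of log2(TPM + 1). The cause was not tested.

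Counts of members passing are higher and lower together. As a share of their own genome's sum, mitochondrial genes passing were 11 for warmth, 11 for warmth under mannitol, 4 for mannitol at 21°C and 1 for mannitol at 27°C, and chloroplast genes were 0 for mannitol at 21°C and 7 at 27°C. In that setting, warmth under mannitol turned to -0.40 for ATMG00030, -0.58 for ATMG00060, -0.18 for ATMG00070 (nad9), -0.12 for ATMG00560 and -0.12 for ATMG00660. A filter of 5 TPM left 9, 10 and 1 mitochondrial genes for warmth, warmth under mannitol and mannitol at 27°C, since fewer genes were tested. Chloroplast counts for mannitol were 2 and 2 (21°C and 27°C) without a filter, 2 and 2 without the trend, 3 and 2 with voom, and 7 at 27°C after median-of-ratios rescaling. Mitochondrial counts for mannitol at 21°C were 1 without a filter, without the trend and with voom. At 27°C they were 5 without a filter and 1 with pseudocounts 0.1 and 0.5, after median-of-ratios rescaling and with voom. The interaction of ATMG01370 ended without the trend and with voom, leaving 0.

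Leaving out 1 library gave chloroplast counts of 11 to 17 for warmth, 19 to 31 for warmth under mannitol, 1 to 9 for mannitol at 21°C, 2 to 8 for mannitol at 27°C and 0 to 4 for the interaction. Mitochondrial counts were 16 to 23, 18 to 26, 1 to 4, 1 to 4 and 0 to 1. Replicate numbers did not pair the libraries (18 correlations of deviations, from -0.08 to 0.13); with the replicate block, mannitol at 27°C gave 5 mitochondrial genes, and the interaction gave 1 chloroplast and 0 mitochondrial genes. Of the calls on single genes, 9 of 13 chloroplast and 6 of 21 mitochondrial calls for warmth, and 17 of 26 and 5 of 23 under mannitol, held in every setting run, but 0 of 6 chloroplast calls for mannitol at 21°C. Low read counts limit the mitochondrial genes most, of which 15 of 36 tested had under 60 reads in 12 libraries.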
